A study of Mus musculus with 47 samples.

Results

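The collagen genes of mouse muscle stem cells are described here, in animals kept on a high-fat or a control diet and collected around the clock. Members are all genes with a symbol made of Col, a number, a and a number, each read from 1 probe set, the one whose mean over the 47 arrays was highest. This gave 42 genes of the 17097 with a named probe set. They comprise 11 fibrillar collagens, 6 basement membrane collagens of type IV and 25 others. Of the 42, 25 reached the filter on low values and were tested among 10258 genes, namely 7 fibrillar, 3 basement membrane and 15 other collagens. The filter used the mean of a gene over all arrays, at 5.80 on the log2 scale.

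All mice were wild-type C57B6/J females, 15 weeks old, and differed in diet, which had been given for 7 weeks. The high-fat groups held 4 mice at each of ZT0, ZT4, ZT8, ZT12 and ZT20 and 3 mice at ZT16, 23 in all. The control groups held 4 mice at each of the same 6 times, 24 in all. ZT is zeitgeber time in hours, with ZT0 by convention at lights on. Total RNA of each mouse was amplified and read on 1 Affymetrix expression array, and the labels name the cells as muscle stem cells of skeletal muscle without the sorting markers. Mice of both diets at a time were collected on 1 day. A difference between diets at a time therefore lies within a day, whereas time of day and collection day cannot be told apart within a diet.

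Collagens are proteins with a triple helix of 3 chains, most of them secreted and some transmembrane, and each gene encodes a chain. Fibrillar collagens form the tensile fibres of connective tissue, and type IV collagen forms the sheet of the basement membrane that covers a muscle fibre and its stem cells. Collagens of types V and VI are known components of the niche of the muscle stem cell.

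Arrays were alike in overall level, and the mean correlation of an array with others of its group lay between 0.969 and 0.987. All 10 satellite cell markers reached the filter, among them Pax7, the defining transcription factor, and their summed level lay at 13.69 to 14.20 in high-fat and 13.67 to 14.06 in control mice (log2). Markers of other cells were present too. Of the list for fibro-adipogenic cells and fibroblasts, 9 of 10 had a probe set and 6 reached the filter, with the defining marker Pdgfra below it, and the summed level was 11.92 to 12.48 in high-fat and 11.62 to 12.68 in control mice. Of the immune list, only Cd68 of 6 genes on the array reached the filter. The endothelial list had 5 of 8 genes over the filter, with Kdr, Tie1 and Esam below it. Its summed level was 9.61 to 10.41 in high-fat mice and 9.84 to 11.71 in control mice, the highest value being that of control ZT20 replicate 2. The same array held the highest fibro-adipogenic and fibroblast level, 12.68.

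Averaged over the day, 6 of the 25 tested collagens were higher on the high-fat diet and none was lower, where 11.5% of all genes passed in either direction and 4.7% were higher. They were Col15a1, Col6a2, Col19a1, Col9a3, Col4a1 and Col3a1. The difference was above 0 for 23 of 25 collagens, against 44.9% of all genes tested, and its median was 0.10 on the log2 scale, against -0.01 over all genes. Such a share was not particular to collagens. It was 10 of 10 for satellite cell markers and 6 of 6 for fibro-adipogenic and fibroblast markers (medians 0.10 and 0.13). For genes of collagen processing and crosslinking it was 10 of 11 (0.14). It was 3 of 14 for collagen hydroxylases and chaperones, 2 of 5 for endothelial and 1 of 6 for smooth muscle and pericyte markers. By class, 1 of 7 fibrillar, 1 of 3 basement membrane and 4 of 15 other collagens passed, with medians of 0.09, 0.09 and 0.11. Values after ± are standard errors from limma unless SD is named, and adjusted p-values are limma's after Benjamini-Hochberg adjustment over the 10258 genes, with a threshold of 0.05. In RNA from whole cell samples, more cells of a type and more RNA per cell cannot be told apart.

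**Figure D1:**
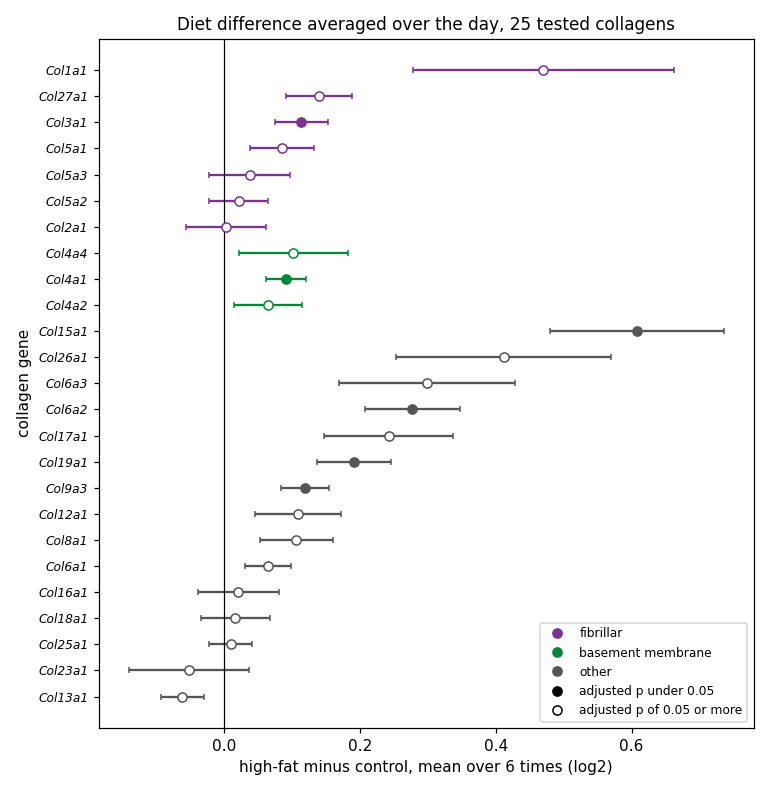
High-fat minus control difference averaged over 6 times (log2, horizontal axis) for each of 25 tested collagens, with bars of 1 standard error. Filled points passed at an adjusted p under 0.05, and 23 of 25 points lie above 0.

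By time of day, ZT0 had the largest count. There 4 collagens were higher on the high-fat diet and none lower (Col6a2, Col15a1, Col6a3 and Col4a1), where 3.56% of all genes passed and 1.33% were higher. The collagen median at ZT0 was 0.18, against -0.03 over all genes. At ZT4 the difference was above 0 for 7 of 25, against 53.1% of all genes, and a median of -0.06. No collagen passed in limma at ZT4 (0.312% of all genes), ZT8 (1.78%), ZT12 (0.858%) or ZT16 (13.3%). At an unadjusted p under 0.05 the counts there were 2, 9, 4 and 7 of 25, against 11 at ZT0 and 7 at ZT20. At ZT20 only Col17a1 passed (0.819% of all genes).

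**Figure D2:**
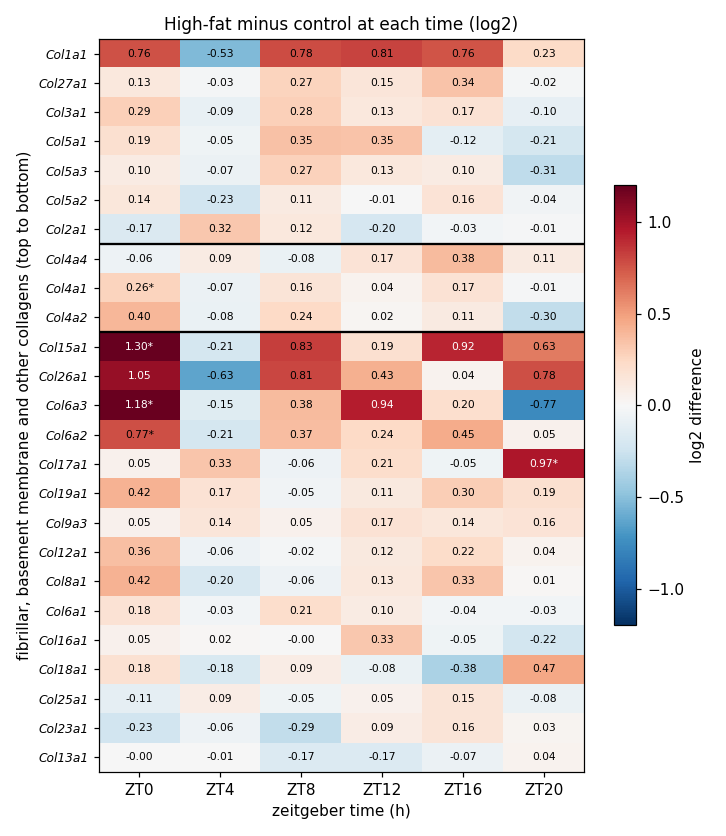
High-fat minus control difference (log2) at each time for the 25 tested collagens, red where higher on the high-fat diet and blue where lower, in the order fibrillar, basement membrane and other. Asterisks mark an adjusted p under 0.05, reached by 4 collagens at ZT0 and 1 at ZT20.

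Among the fibrillar collagens, Col3a1 encodes the chain of type III collagen, abundant in soft connective tissue. At ZT0 its log2 levels were 11.55, 11.19, 11.36 and 11.52 in high-fat mice, against 10.91, 11.11, 11.27 and 11.17 in control mice. At ZT8 they were 11.31, 11.35, 11.18 and 11.36 in high-fat mice, against 11.07, 11.04, 11.03 and 10.92 in control mice. The groups overlapped at ZT0 and not at ZT8. At ZT4 the order was turned, with means of 11.39 ± 0.11 in high-fat and 11.48 ± 0.14 in control mice (SD, n = 4 each). The average difference was 0.11 ± 0.04 (adjusted p = 0.049), a 1.08-fold change. Leaving out 1 array ended this call for 33 of the 47 arrays, with adjusted p-values up to 0.0894. It was also lost without the mice of ZT0, ZT8, ZT12 or ZT16 (0.08, 0.08, 0.11 and 0.10, adjusted p = 0.243, 0.28, 0.0858 and 0.13). The mean of its 2 probe sets, of which the second lay at 4.66 over all arrays, gave 0.07 (adjusted p = 0.473).

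Col1a1, the main chain of type I collagen, varied more between mice of a group than nearly any other gene. Its SD within groups was 0.695, at the 99.9th percentile of all genes tested, where the median gene had 0.19. At ZT8 the levels were 8.49, 8.81, 8.96 and 9.11 in high-fat mice, against 7.96, 7.76, 8.29 and 8.24 in control mice, and the groups did not overlap. At ZT20 they were 10.33, 10.15, 10.01 and 7.76 in high-fat mice, against 8.17, 10.07, 9.07 and 10.00 in control mice, and overlapped. The average difference of 0.47 ± 0.19 did not pass (adjusted p = 0.104), and at ZT8 the difference of 0.78 did not pass. Without high-fat ZT20 replicate 4 the average was 0.57 (adjusted p = 0.0235). Type I collagen also needs the chain of Col1a2. The single probe set of Col1a2 lay below the filter, between 5.26 and 6.13, so the partner chain could not be tested in the same way. Whether this probe set reads the main Col1a2 transcript is not known here, and its low level is no measure of the chain.

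Type V collagen, which sets the width of fibrils, has chains from Col5a1, Col5a2 and Col5a3. None differed between diets on average (0.09, 0.02 and 0.04, adjusted p = 0.246, 0.801 and 0.743). For Col5a1 the diet difference changed with time (adjusted p = 0.0282), as it did for 5 of 25 collagens in all, where 12.4% of all genes passed. At ZT8 its levels were 10.31, 10.23, 10.16 and 10.45 in high-fat mice, against 10.06, 9.63, 10.04 and 10.01 in control mice. At ZT20 they were 10.14, 10.16, 10.26 and 10.31 in high-fat mice, against 10.40, 10.46, 10.35 and 10.49 in control mice. The high-fat mice were all above the control mice at ZT8 and all below them at ZT20. The second of the 3 Col5a1 probe sets gave the same call and the third did not (adjusted p = 0.0178 and 0.0956, adjusted over all probe sets). Of the other fibrillar collagens, Col27a1 had an average difference of 0.14 ± 0.05 (adjusted p = 0.0528) and Col2a1, the cartilage collagen, one of 0.00 ± 0.06 (adjusted p = 0.98). Another probe set of Col27a1 gave 0.31 (adjusted p = 0.0397, adjusted over all probe sets).

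**Figure D3:**
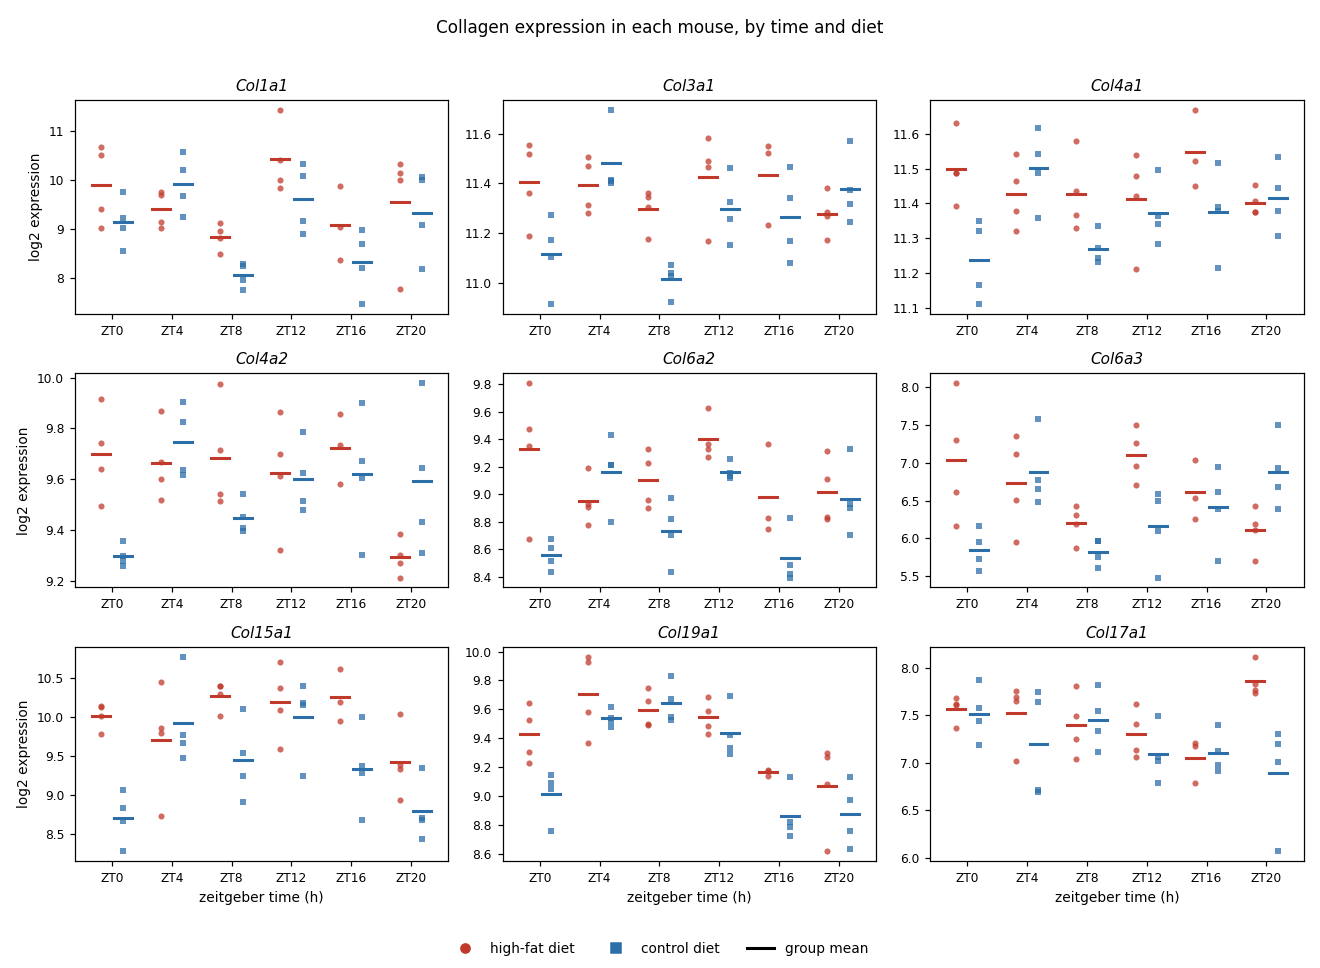
Log2 expression of 9 collagens in each of 47 mice (points) and group means (lines), by zeitgeber time and diet. The vertical axes differ between genes. At ZT0 the high-fat mice lie above the control mice for Col4a1, Col4a2, Col6a2, Col15a1 and Col19a1 without overlap, and at ZT4 the high-fat mean lies below the control mean for all of these but Col19a1.

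Upstream sequences are shown for Col3a1, the fibrillar gene that passed on average, and for Col5a1 and Col5a3. The 24 h fits of Col5a1 and Col5a3, given below, passed on both diets and were not tested against each other. The sequences are from RefSeq (GRCm38.p6), overlap no annotated gene, and run 5′ to 3′ on the strand of the gene. The sequences of Col3a1 and Col6a2 end at the base before the annotated start. Those of Col5a1 and Col5a3 end 50 bases before it, since the annotated gene begins in between. Distances run from the first base of a motif to the annotated start. Col6a2 has 2 annotated starts, at 76623404 and 76623630, and the upstream one, 76623630, is used here. A promoter entry was found for 33 of 42 collagens. Capitals mark the letters TATAAA of the TATA box, the SMAD motif CAGACA, the GC motif GGGCGG and the motif CCAAT, searched on both strands together with CACGTG, the E-box of the clock factors. No searched motif overlapped another.
Col3a1, chr1:45311288-45311537, plus strand: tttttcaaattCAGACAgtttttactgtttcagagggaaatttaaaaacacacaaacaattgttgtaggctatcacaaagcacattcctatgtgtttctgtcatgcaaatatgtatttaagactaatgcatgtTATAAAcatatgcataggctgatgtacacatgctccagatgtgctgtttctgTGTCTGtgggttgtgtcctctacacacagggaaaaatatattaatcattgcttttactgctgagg
Col5a1, chr2:27886175-27886374, plus strand: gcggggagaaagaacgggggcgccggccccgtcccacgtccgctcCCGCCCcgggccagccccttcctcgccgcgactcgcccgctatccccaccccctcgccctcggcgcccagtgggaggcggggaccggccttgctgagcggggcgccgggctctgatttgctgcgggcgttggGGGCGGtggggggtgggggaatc
Col5a3, chr9:20815118-20815317, minus strand: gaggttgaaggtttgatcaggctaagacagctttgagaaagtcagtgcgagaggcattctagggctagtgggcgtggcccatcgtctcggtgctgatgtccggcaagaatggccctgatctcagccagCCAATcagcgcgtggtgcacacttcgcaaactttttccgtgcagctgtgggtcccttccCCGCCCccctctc

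Col3a1 held a TATAAA 117 bases upstream of its start and CAGACA 239 and 65 bases upstream. Of 32851 windows of 250 bases upstream of annotated starts, 12.4% held TATAAA and 17.1% CAGACA. Col5a1 held GGGCGG 205 and 73 bases upstream, and Col5a3 held it 63 bases upstream, with CCAAT 122 bases upstream. Of 32851 such windows of 200 bases, 24.6% held GGGCGG and 28.4% CCAAT. None of the sequences held CACGTG, found in 6.02% of the longer and 4.34% of the shorter windows. A match is a description of letters and not of a bound site.

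Of the basement membrane collagens, Col4a1 and Col4a2 encode the chains of the common type IV network. At ZT0 Col4a1 had 11.49, 11.39, 11.63 and 11.49 in high-fat mice, against 11.11, 11.35, 11.32 and 11.16 in control mice. Col4a2 had 9.64, 9.50, 9.92 and 9.74 in high-fat mice, against 9.28, 9.36, 9.26 and 9.30 in control mice. For both genes every high-fat mouse was above every control mouse. Col4a1 rose by 0.26 ± 0.07 (adjusted p = 0.0295) at ZT0, and by 0.09 ± 0.03 on average (adjusted p = 0.0345), which is 1.07-fold. Without the ZT0 mice the average difference of Col4a1 was 0.06 (adjusted p = 0.277), with the mean of its probe sets 0.09 (adjusted p = 0.0594), and the average call was lost without any 1 of 11 of the 47 arrays. The ZT0 call was lost without control replicate 1 or 4 or high-fat replicate 1, 3 or 4. Col4a2 differed by 0.40 at ZT0 and 0.06 ± 0.05 on average, neither passing (adjusted p = 0.445 for the average).

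For Col4a2 the diet difference changed with time (adjusted p = 0.0431). At ZT20 its levels were 9.38, 9.30, 9.21 and 9.27 in high-fat mice, against 9.64, 9.98, 9.31 and 9.43 in control mice. Here the means were in the opposite order to ZT0, though the ranges overlapped. The Col4a2 call was lost without any 1 of 21 of the 47 arrays. Its adjusted p rose most, to 0.0796, without control ZT20 replicate 2, the mouse at 9.98. That array had the lowest mean correlation with its group (0.969) and the highest endothelial marker level. The genes lie head to head on chromosome 8 of GRCm38.p6, on opposite strands, with annotated starts at 11312826 (Col4a1) and 11312805 (Col4a2), 21 bases apart. The annotated genes overlap at this end, so the 21 bases are not a gap between them. Across the 47 mice, after group means were removed, their levels correlated (Pearson r = 0.69, adjusted permutation p = 0.00012; Spearman rho = 0.70, adjusted permutation p = 0.00012). Without the 2 arrays farthest from the median r was 0.63.

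Col4a4, a chain of the type IV network of kidney and other specialised membranes, differed by 0.10 ± 0.08 on average (adjusted p = 0.448). Col4a3, Col4a5 and Col4a6, the other chains of such networks, lay below the filter, with values in any mouse of 5.18 to 5.77, 4.38 to 5.96 and 5.13 to 6.13.

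Of the other collagens, Col15a1 had the smallest p on average. It encodes a collagen of the zone beneath basement membranes of muscle and vessels, of the multiplexin group with Col18a1. At ZT0 it had 10.01, 10.14, 9.78 and 10.13 in high-fat mice, against 8.29, 8.83, 9.07 and 8.68 in control mice. At ZT16 it had 9.95, 10.19 and 10.61 in high-fat mice, against 9.29, 10.00, 8.68 and 9.38 in control mice. The groups were apart at ZT0 and overlapped at ZT16.

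At ZT0 Col15a1 rose by 1.30 ± 0.31 (adjusted p = 0.0149), which is 2.46-fold. The call was lost without control ZT0 replicate 1 (adjusted p = 0.0564). On average it rose by 0.61 ± 0.13 (adjusted p = 0.00154), 1.52-fold, and was higher at 5 of 6 times. The average passed without each of the 47 arrays and without the mice of each time (0.47 to 0.77). Col15a1 also correlated with Col4a1 across mice (r = 0.62, adjusted permutation p = 0.00012; rho = 0.57, adjusted permutation p = 0.00096). Without the 2 farthest arrays r was 0.60.

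Col18a1, whose product yields endostatin, showed no average difference (0.02 ± 0.05, adjusted p = 0.876) but a difference that changed with time (adjusted p = 0.0138). At ZT16 its levels were 7.56, 7.26 and 7.32 in high-fat mice, against 7.80, 7.91, 7.52 and 7.79 in control mice. At ZT20 they were 8.01, 7.90, 8.21 and 7.68 in high-fat mice, against 7.45, 7.54, 7.14 and 7.82 in control mice. The diet order turned between these times, with differences of -0.38 and 0.47 that did not pass singly. The second probe set of Col18a1 did not show the change with time (adjusted p = 0.364, adjusted over all probe sets).

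Type VI collagen forms beaded filaments around cells, with chains from Col6a1, Col6a2 and Col6a3. At ZT0 Col6a2 had 9.81, 8.68, 9.48 and 9.35 in high-fat mice, against 8.67, 8.51, 8.43 and 8.61 in control mice. Col6a3 had 8.05, 6.16, 6.62 and 7.31 in high-fat mice, against 5.56, 6.16, 5.95 and 5.73 in control mice. The lowest high-fat mouse of each was close to the highest control mouse, and the Col6a3 groups met there. Col6a2 rose by 0.77 ± 0.17 (adjusted p = 0.00828) and Col6a3 by 1.18 ± 0.31 (adjusted p = 0.0284), 1.71-fold and 2.27-fold. The Col6a2 values are from 1 of its 2 probe sets, and the 2 disagreed on the average, as given below. The Col6a2 call was lost without high-fat ZT0 replicate 1 (adjusted p = 0.0526), and that of Col6a3 without control replicate 1 or 4 or high-fat replicate 1 or 4.

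On average Col6a2 rose by 0.28 ± 0.07 (adjusted p = 0.00732). Its other probe set gave 0.08 (adjusted p = 0.577, adjusted over all probe sets), so the 2 probe sets disagreed, and their mean gave 0.18 (adjusted p = 0.073). Without the ZT0 mice the difference was 0.18 (adjusted p = 0.105). Col6a3 differed by 0.30 ± 0.13 on average (adjusted p = 0.127), and by 0.51 (adjusted p = 0.0177) without the ZT20 mice. At ZT20 the order of Col6a3 was opposite, with 6.11 ± 0.30 in high-fat and 6.88 ± 0.47 in control mice (SD, n = 4 each).

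The diet difference changed with time for Col6a3 (adjusted p = 0.0173) and Col6a2 (adjusted p = 0.0435), and the Col6a2 call was lost without any 1 of 21 of the 47 arrays. Col6a1 differed by 0.06 ± 0.03 on average (adjusted p = 0.21). It correlated with its neighbour Col6a2, 85162 bases away on chromosome 10 (r = 0.45, adjusted permutation p = 0.015; rho = 0.46, adjusted permutation p = 0.0134). The upstream sequence of Col6a2, which passed on average and at ZT0, follows, with the GC box letters in capitals, 175 bases upstream. Of 250-base windows, 32.7% held GGGCGG.
Col6a2, chr10:76623631-76623880, minus strand: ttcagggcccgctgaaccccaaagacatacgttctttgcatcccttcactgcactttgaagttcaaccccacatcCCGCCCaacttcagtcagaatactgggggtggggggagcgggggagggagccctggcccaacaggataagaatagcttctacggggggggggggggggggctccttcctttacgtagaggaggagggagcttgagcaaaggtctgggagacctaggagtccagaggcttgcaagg

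Of the FACIT collagens, which lie on the surface of fibrils or near basement membranes, Col19a1 and Col9a3 passed on average. Col19a1, made during muscle cell differentiation, had 9.53, 9.23, 9.65 and 9.31 in high-fat mice at ZT0, against 9.15, 9.05, 8.76 and 9.09 in control mice. At ZT16 it had 9.17, 9.18 and 9.14 in high-fat mice, against 9.13, 8.82, 8.72 and 8.79 in control mice. The groups did not overlap at either time. It rose by 0.19 ± 0.05 on average (adjusted p = 0.0175), with adjusted p-values of 0.128 without the ZT0 and 0.0964 without the ZT16 mice. Its 2 other probe sets gave 0.20 and 0.11 (adjusted p = 0.0685 and 0.565, adjusted over all probe sets). Col9a3, a chain of the cartilage collagen type IX, rose by 0.12 ± 0.04 (adjusted p = 0.0234) and was higher at 6 of 6 times. Its levels ranged over 6.62 to 7.13 in high-fat and 6.51 to 6.93 in control mice, so the ranges overlapped widely. The call was lost without the ZT12, ZT16 or ZT20 mice (adjusted p = 0.0874, 0.084 and 0.0674). The mean of its 2 probe sets, of which the second lay at 3.94 over all arrays, gave 0.08 (adjusted p = 0.136). Col12a1 and Col16a1 did not pass (0.11 and 0.02).

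Of the transmembrane collagens, Col17a1, an anchor of epithelial cells, passed at ZT20. Its levels there were 7.73, 7.76, 8.11 and 7.83 in high-fat mice, against 7.30, 6.07, 7.19 and 7.01 in control mice. Every high-fat mouse was above every control mouse, and 1 control mouse lay far below the others. The difference was 0.97 ± 0.23 (adjusted p = 0.0299), and 0.69 (adjusted p = 0.137) without that mouse, replicate 2. The call was also lost without high-fat replicate 3 or 4. The same mouse had the highest endothelial, fibro-adipogenic and fibroblast, and erythroid marker levels of all. Its part in the result was not tested. Col13a1 and Col23a1 were the collagens with an average difference below 0 (-0.06 and -0.05), and Col25a1 had 0.01, none passing. Col8a1, a short-chain collagen of vessel walls, had 0.11 ± 0.05 (adjusted p = 0.203), and Col26a1 had 0.41 ± 0.16 (adjusted p = 0.0819).

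Below the filter, further fibrillar members were Col11a1 (4.57 to 6.25 over mice), Col11a2 (4.91 to 5.80) and Col24a1 (4.33 to 5.07). Further other members were Col6a4, Col6a5, Col7a1, Col8a2, Col9a1, Col9a2, Col10a1, Col14a1, Col20a1 and Col22a1. Each lay between 4.31 and 6.05 in every mouse except Col20a1, which reached 7.21. When all genes were tested with no filter, Col7a1, the anchoring fibril collagen of skin, was the one of these 17 that passed, and it was lower. Its average difference was -0.09 (adjusted p = 0.0258). At ZT16 it had 5.77, 5.75 and 5.72 in high-fat mice, against 5.94, 5.98, 6.05 and 5.87 in control mice, without overlap. Differences near the background of the array are compressed.

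A 24 h cosine was fitted within each diet to describe the daily course, in which day and time cannot be told apart. On the high-fat diet 6 of 25 collagens passed, where 16.9% of all genes did (Col19a1, Col18a1, Col5a3, Col5a1, Col16a1 and Col5a2). On the control diet 6 of 25 passed, where 10.5% of all genes did (Col19a1, Col5a1, Col5a3, Col18a1, Col15a1 and Col8a1). Amplitude is the height of the fitted peak over the fitted mean. With collection day as a random block, 2 collagens passed in high-fat mice (Col19a1 and Col18a1), where 5.65% of all genes did, and 4 in control mice (Col19a1, Col5a1, Col5a3 and Col18a1), where 2.82% did. The calls lost with the block were those of Col5a3, Col5a1, Col5a2 and Col16a1 in high-fat mice (adjusted p = 0.0516, 0.0737, 0.123 and 0.164) and of Col15a1 and Col8a1 in control mice (adjusted p = 0.176 and 0.216).

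Col19a1 had the smallest p on both diets, with an amplitude of 0.31 ± 0.06 in high-fat mice, peaking at 6.47 h, and of 0.45 ± 0.05 in control mice, peaking at 7.37 h. Its means ranged over 9.07 to 9.71 in high-fat groups and over 8.86 to 9.64 in control groups. Col18a1 peaked at 3.59 h in high-fat mice (0.31 ± 0.07) and at 5.87 h in control mice (0.32 ± 0.06). The highest group mean of each gene was at ZT4 or ZT8 on both diets.

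Col5a1 and Col5a3 peaked near each other, at 3.18 h and 3.65 h in high-fat mice and at 0.03 h and 1.5 h in control mice. Their amplitudes were 0.23 ± 0.06 and 0.30 ± 0.07 in high-fat mice, against 0.30 ± 0.05 and 0.33 ± 0.07 in control mice. Col5a2, the remaining chain, passed on the high-fat diet and peaked on the other side of the day, at 18.2 h (0.20 ± 0.05). On the control diet it had an amplitude of 0.14 (adjusted p = 0.154). Col15a1 passed on the control diet, with an amplitude of 0.57 ± 0.14 and a peak at 9.39 h, and so did Col8a1, with 0.22 ± 0.06 at 9.66 h. Col16a1 passed on the high-fat diet, with 0.22 ± 0.06 at 7.91 h. Leaving out 1 array ended the call of Col16a1 (high-fat ZT8 replicate 2), of Col5a2 (high-fat ZT16 replicate 3 or ZT8 replicate 1 or 2) and of Col8a1 (control ZT0 replicate 2 or ZT8 replicate 1), with limma adjusted p-values between 0.0505 and 0.0694.

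No collagen differed in the 24 h curve between diets in limma, where 2.11% of all genes did, and at an unadjusted p under 0.05 the count was 2 (Col13a1 and Col5a1, the lowest adjusted p being 0.146 for Col5a1). The collagens that passed on 1 diet are therefore not shown to differ in their curve between diets. With time as a factor with any shape, 9 of 25 passed on the high-fat diet, where 40.1% of all genes did, and 15 of 25 on the control diet, where 36.3% did.

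**Figure D4:**
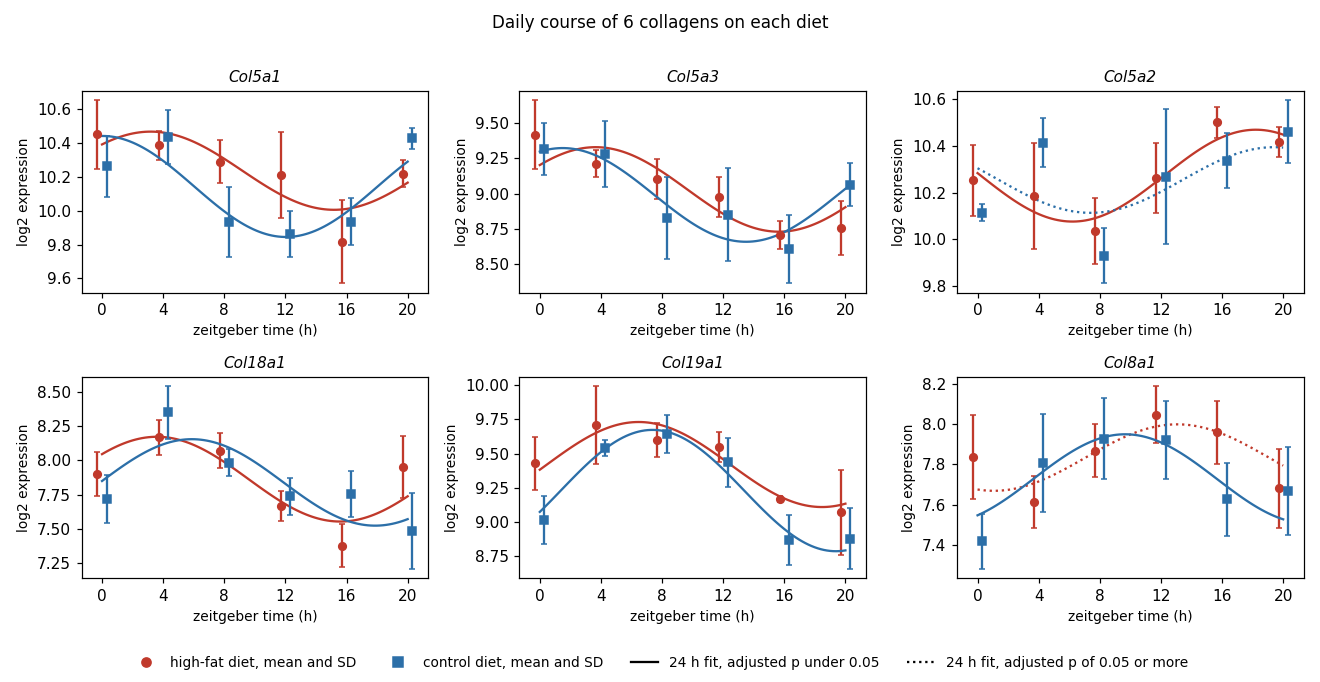
Group means and SD (n = 4 mice, 3 at high-fat ZT16) of 6 collagens by zeitgeber time and diet, in log2 units, with the fitted 24 h curve. Solid curves passed at an adjusted p under 0.05. The lowest mean of Col5a3 on both diets, and of Col5a1 on the high-fat diet, is at ZT16, that of Col5a1 on the control diet is at ZT12, and Col5a2 is lowest at ZT8 on both diets.

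Collagen needs enzymes and chaperones in the cell before secretion. Of 18 such genes 14 were tested, and none passed on average, where 11.5% of all genes did. Serpinh1, the collagen chaperone HSP47, had 0.15 ± 0.05 (adjusted p = 0.0583), Colgalt1 -0.10, Plod3 -0.09 and P3h1 -0.15. At ZT0 Serpinh1 rose by 0.43 ± 0.13 (adjusted p = 0.0457), while P3h1, a prolyl 3-hydroxylase, fell by 0.75 ± 0.20 (adjusted p = 0.0325). Serpinh1 correlated with Col4a1 across mice (r = 0.53, adjusted permutation p = 0.00412; rho = 0.50, adjusted permutation p = 0.00784) and did not pass with Col1a1 (r = 0.25, adjusted permutation p = 0.198; rho = 0.25, adjusted permutation p = 0.215). Of 12 pairs computed, 4 passed, and the same 4 passed without the 2 farthest arrays.

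Of 16 genes of processing and crosslinking outside the cell, 11 were tested and 3 passed on average, all higher, where 4.7% of all genes were higher. Bmp1, the protease that trims procollagen, rose by 0.31 ± 0.05 (adjusted p = 0.000173), the lysyl oxidase Loxl2 by 0.24 ± 0.07 (adjusted p = 0.0225) and the fibril-binding Fmod by 0.42 ± 0.14 (adjusted p = 0.0426). Loxl3, another lysyl oxidase, had 0.16 ± 0.06 (adjusted p = 0.0555). The diet difference changed with time for 5 of 11, where 12.4% of all genes passed. Among them was Sparc, a collagen-binding protein, which differed by 0.26 ± 0.06 at ZT8 and by -0.23 ± 0.06 at ZT20, both passing (adjusted p = 0.0165 and 0.0429). Pcolce2, an enhancer of Bmp1, and Lox, the founding lysyl oxidase, were the others with the smallest p (adjusted p = 0.00584 and 0.00917).

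Of 12 degradation genes 6 were tested, and Timp2, a protease inhibitor, was the 1 that passed on average (0.09 ± 0.02, adjusted p = 0.00194). Of all genes 11.5% passed on average. Timp1, another inhibitor, had 0.27 ± 0.10 (adjusted p = 0.0671). The diet difference of Mmp14, a membrane-bound collagenase, changed with time (adjusted p = 0.0303). Of 10 receptors 4 were tested and none passed on average. Ddr2, a receptor for fibrillar collagen, rose by 0.43 ± 0.11 at ZT0 (adjusted p = 0.0163). Of 12 inducers 10 were tested and none passed on average. Tgfbr1 had -0.12 ± 0.04 and Tgfbr2 0.12 ± 0.05 (adjusted p = 0.0681 and 0.105), the receptor pair of the growth factor that induces collagen.

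Markers of cells that make much collagen were followed at each time. At ZT0 4 collagens passed in limma, where 3.56% of all genes did. Of the markers, 0 of 6 tested fibro-adipogenic and fibroblast, 0 of 3 tenocyte and 0 of 4 Schwann cell genes passed there. The same counts of 0 held at ZT20, where 0.819% of all genes passed. At such shares, a count of 0 in a list this small decides little. At an unadjusted p under 0.05 the counts were 1, 0 and 2 at ZT0 and 1, 0 and 1 at ZT20. Of the fibro-adipogenic and fibroblast list 1 of 6 passed at each of ZT8, ZT12 and ZT16, all higher. Of all genes 1.78%, 0.858% and 13.3% passed at these times, and no collagen did. The collagen difference there was still above 0 for 16, 21 and 18 of 25, against 45.5%, 50.3% and 46.6% of all genes. Its medians were 0.12, 0.13 and 0.16, and those of the fibro-adipogenic and fibroblast list were 0.16, 0.41 and 0.37. At an unadjusted p under 0.05 that list had 2, 3 and 1 of 6. At ZT4 the medians of collagens and of that list were -0.06 and -0.20. The summed level of the 9 fibro-adipogenic and fibroblast markers was 12.11 to 12.28 in high-fat and 11.79 to 12.04 in control mice at ZT0. It was 11.92 to 12.18 in high-fat and 11.62 to 11.92 in control mice at ZT8, and 12.16 to 12.48 in high-fat and 11.88 to 12.09 in control mice at ZT12. At these times the groups did not overlap. At ZT4 it was 12.04 to 12.30 in high-fat and 12.02 to 12.30 in control mice, at ZT16 11.98 to 12.16 in high-fat and 11.92 to 12.13 in control mice, and at ZT20 12.16 to 12.38 in high-fat and 12.10 to 12.68 in control mice. The groups overlapped at these 3 times, and the value of 12.68 was that of control ZT20 replicate 2. The summed satellite cell level did not overlap at ZT0, with 13.911 to 13.993 in high-fat and 13.826 to 13.907 in control mice, nor at ZT16, with 13.87 to 14.01 in high-fat and 13.67 to 13.84 in control mice. The tenocyte list was apart at ZT8 and ZT16, the Schwann cell list at ZT12, the adipocyte list at ZT12 and ZT16, the endothelial list at ZT16 and the myofibre list at ZT8, each higher in high-fat mice. At ZT20 the myofibre list was apart and lower, with 9.14 to 9.42 in high-fat and 9.58 to 9.94 in control mice. No other list was apart at any time. Groups of 3 or 4 mice can also be apart by chance. The share of all genes that were apart at each time is not given here, so these separations are description only.

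On average 11.5% of all genes passed and 4.7% were higher. Of the fibro-adipogenic and fibroblast list 1 of 6 tested markers passed (Dpt, a matrix protein, 0.13 ± 0.04, adjusted p = 0.0156), and Smoc2 and Dcn had 0.48 and 0.14. Dcn, which binds collagen fibrils, did not pass in its correlation with Col1a1, Col4a1 or Col15a1 (r = 0.34, -0.06 and -0.21, adjusted permutation p = 0.108, 0.848 and 0.379; rho = 0.27, -0.04 and -0.17, adjusted permutation p = 0.169, 0.807 and 0.468). Of 3 tested tenocyte markers 1 passed on average (Fmod, higher), with Tnmd, Mkx and Kera below the filter. The summed tenocyte level was 8.00 to 10.00 in high-fat and 7.66 to 9.70 in control mice. Of 4 tested Schwann cell markers 3 passed, all higher (Mbp, Cnp and Sox10), with summed levels of 9.51 to 11.08 in high-fat and 9.40 to 10.24 in control mice. Their part in the collagen differences was not tested.

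Of 5 tested endothelial markers none passed on average, where 11.5% of all genes passed and 4.7% were higher. Of 6 smooth muscle and pericyte markers 2 passed at ZT20, both lower, where 0.819% of all genes passed. At ZT0 1 passed, higher, where 3.56% did. On average Notch3, also on the satellite cell list, was higher and Pdgfrb lower. The average difference was above 0 for 1 of 6, with a median of -0.20, against -0.01 over all genes. Summed levels were 12.38 to 13.23 in high-fat and 12.38 to 13.33 in control mice. Cd68, the tested immune marker, was lower by 0.30 on the log2 scale (-0.30 ± 0.09, adjusted p = 0.02). Of 10 satellite cell markers 5 passed on average, all higher (Heyl, Notch3, Calcr, Pax7 and Vcam1), such as Heyl by 0.18 ± 0.03 (adjusted p = 0.000658). Of 6 tested myofibre markers Actn3 passed, of 2 tested adipocyte markers Lipe, both higher, and of 2 tested erythroid markers none.

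**Figure D5:**
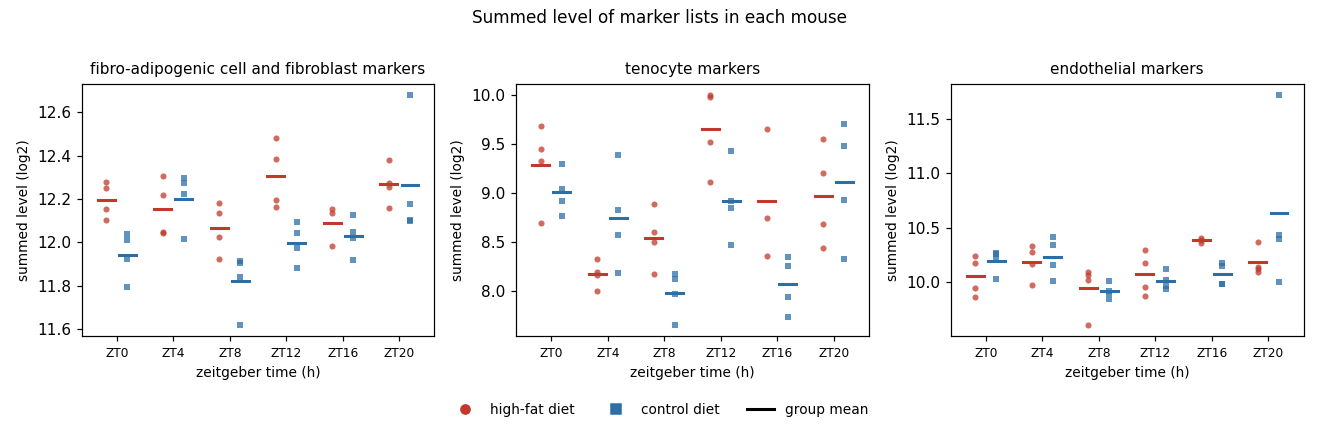
Summed level (log2 of the summed linear values) of the marker lists of fibro-adipogenic cells and fibroblasts, tenocytes and endothelial cells in each of 47 mice, by zeitgeber time and diet, with group means as lines. The fibroblast list is higher in all high-fat mice at ZT0, ZT8 and ZT12, and 1 control mouse at ZT20 stands apart in the endothelial list at 11.71. The same mouse is the highest of all in the fibroblast list, at 12.68.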

How the data were processed

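The deposited table holds log2 expression per probe set, 1 array per mouse, made by the authors with robust multi-array averaging (RMA), per the submitters' processing notes. The sources used here give neither its version nor its settings. Array medians lay between 5.86 and 5.94 log2, so a difference is relative to most genes, and the number of arrays limits the precision. Of 45141 probe sets, the platform annotation gave 28898 1 symbol, 551 several and 15692 none, and only the first were named, and 104 control probe sets were left out. Symbols were updated through the gene identifier, matched for 28689 probe sets. Genes whose mean over all arrays lay under the 40th percentile were not tested.

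Tests used R 4.3.3 and limma 3.58.1 (lmFit, eBayes with an intensity trend), two-sided, on 12 group means for diet contrasts, with all mice in each fit. The change with time is an F test of the 6 diet differences. Rhythms were F tests of a 24 h cosine and sine. Correlations used deviations from group means, with 100000 permutations within groups. Col1a1 with Col1a2 was left out, since Col1a2 was under the filter. Models were run on simulated data with independent noise and no effect of collection day. That run therefore cannot speak to the daily-course calls, where day and time cannot be told apart. Replicate numbers are not said to pair mice, and 1 of 23 same-numbered pairs correlated above 0.1 (-0.19 to 0.11). The labels call the samples biological replicates. Alternatives were the filter, normalization, array weights, variance trend, probe set choice, replicate block, collection day and left-out mice or times. Named genes were all tested members, those below the filter by range, and, per pathway and marker list, those with the smallest p-values. The members and lists were chosen with earlier results of these data known.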

Additional observations from a re-analysis of the deposited data

Results flagged for a closer look

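In groups of 4 mice, a mouse was marked where its gap to the nearest other mouse, divided by the range of the group, exceeded Dixon's 95% critical value. Of 176 groups of 16 collagens, 8 were marked, and chance marks about 1 in 20. High-fat mice that stood low were Col1a1 at ZT20 (replicate 4, 7.76, the others from 10.01 to 10.33), Col8a1 at ZT20 (replicate 4, 7.38, the others from 7.75 to 7.80) and Col17a1 at ZT4 (replicate 1, 7.01, the others from 7.65 to 7.76). Col9a3 stood high at high-fat ZT4 (replicate 4, 7.13, the others from 6.69 to 6.72). Control mice that stood low were Col5a1 at ZT8 (replicate 2, 9.63, the others from 10.01 to 10.06), Col5a3 at ZT20 (replicate 4, 8.84, the others from 9.12 to 9.15) and Col8a1 at ZT4 (replicate 1, 7.44, the others from 7.92 to 7.94). Col3a1 stood high at control ZT4 (replicate 4, 11.7, the others from 11.40 to 11.41).

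The diet difference depended on the time of day by limma's interaction test for 5 collagens. The adjusted p-values were 0.0138 for Col18a1, 0.0173 for Col6a3, 0.0282 for Col5a1, 0.0431 for Col4a2 and 0.0435 for Col6a2.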

How the results depend on the processing

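No called result changed direction under the alternatives run. Counts of collagens that passed on average moved to 3 with the mean of all probe sets of a gene, 2 without the ZT0 or the ZT16 mice and 11 without the ZT4 mice, against 6 with all mice. At ZT0 the count was 7 after cyclic loess. At ZT8 it was 1 with array weights and with the mean of probe sets. At ZT16 it was 1 with no filter, cyclic loess, no intensity trend or the mean of probe sets, 2 with the filter at the 60th percentile and 6 with array weights. At ZT20 it was 2 with that filter and after cyclic loess. The change with time was called for 3 collagens with the replicate number as a block and without the ZT0, ZT4 or ZT8 mice, and for 1 without the ZT16 or the ZT20 mice. The replicate block moved no other count by over 1.5 times. Curves between diets differed for 1 collagen with the mean of probe sets or without the ZT4 mice and for 2 without the ZT0 mice. The daily course was called on the high-fat diet for 1 without the ZT16 mice and 2 with collection day as a random block, and on the control diet for 15 with time as a factor. Leaving out 1 array gave 4 to 8 on average, 1 to 6 at ZT0, 0 to 2 at ZT16 and at ZT20, 3 to 7 for the change with time, 4 to 7 on the high-fat and 5 to 7 on the control diet, and 0 to 0 at ZT4, ZT8, ZT12 and between curves. The causes were not tested.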
